A study of Homo sapiens with 14 samples.

Results

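Clone 1 is a line grown from a single cell of PC3-ML, and the 2 were compared to ask how far the transcriptome of one cell's progeny departs from that of the line it came from. The members were chosen by their titles: the 2 arrays of PC3-ML (Clone 1), called Clone 1 here, and the 2 arrays of PC3-ML, 4 of the 14 arrays in the series, over all 18372 genes that a probe set named without ambiguity. PC3-ML is a subline of PC3, a human prostate carcinoma line that was first isolated from a bone metastasis, and the labels call PC3-ML, Clone 1 and its sister PC3-ML (Clone 3), called Clone 3 here, bone metastatic. None of the 3 carries an introduced gene according to the labels, all were cultured in the same serum-containing DMEM medium with the antibiotic gentamicin, and each was sampled at 2 passages. The other 8 arrays, of PC3-N, PC3-N(PDGFRα), DU-145 and DU-145 (PDGFRα), entered here through the shared estimate of spread, the mean levels by which genes were ordered or kept, the mean of the arrays of PC3 background and a few values given beside those of Clone 1. Each group is 1 line or 1 clone, so the 2 arrays of a group show the spread between passages and not between separately derived clones.

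A cancer cell line is a mixture of related cells that differ in their chromosomes and in the genes they keep silent or active. A line grown from a single cell starts from the chromosomes and the expression state of that cell alone, so it can sit apart from the average of its parent at many genes, and it can go on changing in culture. PC3 cells carry a heavily rearranged set of chromosomes, lack the androgen receptor program and have lost alpha-catenin, and are known for combining epithelial keratins with vimentin. Platelet-derived growth factor receptor alpha (PDGFRα), the receptor that the series was built around, is a tyrosine kinase of mesenchymal cells that PC3-ML carries without any transgene.

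All values are intensities on a linear scale after robust multi-array average (RMA) summary, and changes are differences of log2 intensity, Clone 1 minus PC3-ML. The lowest intensities lay near 18.5, so a gene in the twenties is close to the floor and a change against it is a low estimate. Identity markers were as known for PC3. CTNNA1, which encodes alpha-catenin, read 23.9 and 22.3 in PC3-ML and 24.1 and 23.5 in Clone 1, and KLK3, the prostate-specific antigen gene, read 25.3 and 26.4 and 24.2 and 27.2, all near the floor. VIM, the mesenchymal filament gene vimentin, stood at 299 and 305 in PC3-ML and 331 and 344 in Clone 1. CDH1, the epithelial cadherin, was low in both (26.9 and 25.0 against 28.3 and 32.3). Of the markers of other cell types, DCN and LUM of fibroblasts, PTPRC of leukocytes and CDH5 and VWF of endothelium all lay under 24 in the 4 arrays. Others lay higher. CD14 of leukocytes read 29.5 and 28.5 in PC3-ML and 25.6 and 24.6 in Clone 1. The highest means in the fibroblast, leukocyte and endothelial lists were 65.8, 82.0 and 99.6 in PC3-ML. In Clone 1 they were 109.0, 96.5 and 90.3. The 9 measured leukocyte genes summed to between 282 and 297 in PC3-ML and between 297 and 299 in Clone 1, with 0 called. The 11 fibroblast genes summed to between 332 and 350 in PC3-ML and between 368 and 377 in Clone 1, with PDPN (0.73) called, and the 7 endothelial genes to between 254 and 294 and between 263 and 299, with PECAM1 (1.03) called. The call for PECAM1 was lost without Clone 1 replicate 2 and without PC3-ML replicate 1. The 2 Clone 1 arrays correlated at r = 0.9959 across genes and the 2 PC3-ML arrays at 0.9942, against 0.9721 to 0.981 between the lines.

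Clone 1 differed from PC3-ML at 2533 of the 18372 genes, 13.8% of those tested, by limma with a Benjamini-Hochberg adjusted p under 0.05. Of these, 1656 were higher in Clone 1 (9.01%) and 877 lower (4.77%). Most changes were small: the median absolute change of called genes was 0.54, and 230 genes (1.25%) were called with at least a 2-fold difference, 144 of them higher and 86 lower. The median change of all genes was −0.02. Small RNA genes of all types, among them nucleolar, nuclear and microRNA genes, made up 4 of the higher and 36 of the lower calls. Without them 2493 calls were left. The share of calls that were higher, 65.4%, depended on the scaling, since 1250 were higher and 1087 lower (53.5%) after quantile normalization. Calls were concentrated in well-expressed genes: with genes split by mean level into 4 equal classes, 23.1% of the top class were higher and 10.4% lower, against 0.37% and 0.30% of the bottom class. The number of calls fell on leaving out any 1 of the 4 arrays, so the count itself rests on having both passages. It fell most without PC3-ML replicate 1 and least without PC3-ML replicate 2. ACTB, the cytoskeletal actin gene often taken as a constant reference, was higher in Clone 1 (423 and 529 in PC3-ML, 1116 and 1309.8 in Clone 1, change 1.35) and read 1315 and 1141 in Clone 3, whereas GAPDH read 1007 and 1245 in PC3-ML and 1253 and 1262 in Clone 1 and was not called (0.17, adjusted p = 0.786).

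**Figure D1:**
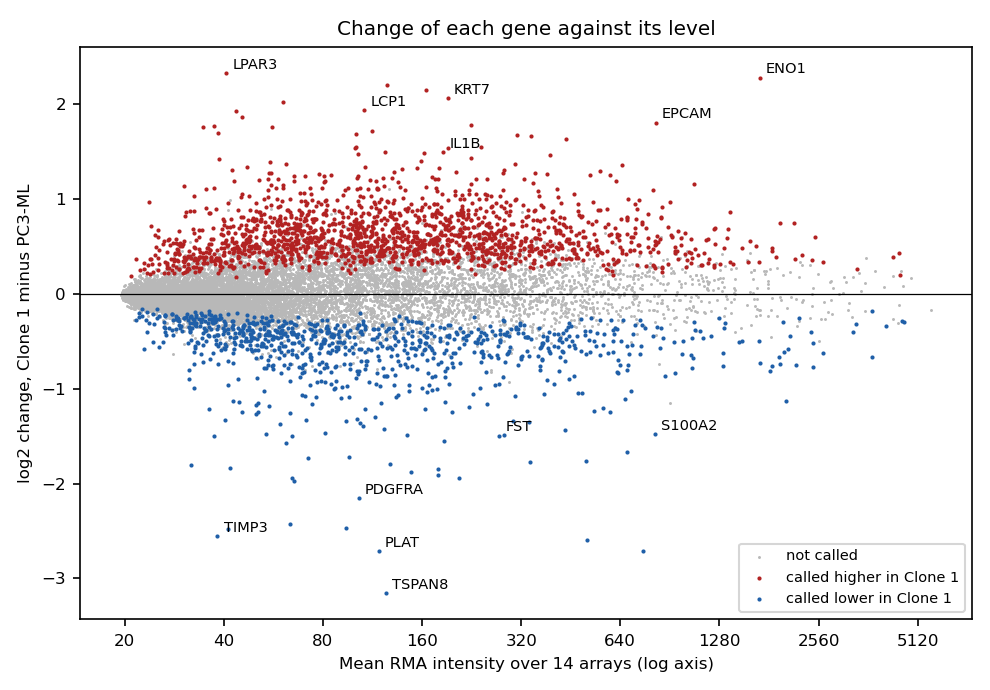
Change of each gene (log2, Clone 1 minus PC3-ML, vertical axis) against its mean intensity over the 14 arrays (log axis), with genes called higher in red, called lower in blue and the rest in grey. Changes called at the lowest levels are few, and the strongest named falls (TSPAN8, PLAT, TIMP3) reach further from 0 than the strongest rises (LPAR3, ENO1).

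The largest falls in Clone 1 were in genes of a surface protein and of secreted proteins. TSPAN8, a tetraspanin of epithelial and metastatic cells, read 476 and 492 in PC3-ML and 50.8 and 58.1 in Clone 1, an 8.9-fold fall (log2 change −3.15, SE 0.15, limma adjusted p = 1.11e-05). PLAT, the tissue plasminogen activator, read 244 and 333 in PC3-ML against 43.8 and 42.9 in Clone 1, which is 6.57-fold lower (−2.72, SE 0.18, adjusted p = 3.2e-05). TSPAN8 and PLAT both stayed high in Clone 3 (332 and 385, and 272 and 205), so their loss separated the clones as well as clone and parent. TIMP3, an inhibitor of metalloproteinases that is bound to the matrix, fell from 158 and 153 to 28.7 and 24.4 (−2.55, SE 0.09, adjusted p = 2.51e-06). A second TIMP3 probe set fell by 0.70. Clone 3 was low in TIMP3 too, at 36.0 and 30.8. In these whole-culture RNAs, fewer cells with a transcript and less of it per cell cannot be told apart.

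PDGFRA was close to the floor in Clone 1, at 31.0 and 26.5, against 104 and 155 in PC3-ML (−2.15, SE 0.19, adjusted p = 0.000138). The Clone 1 arrays lay below every PC3-ML and Clone 3 array (130.1 and 126) and close to those of DU-145 without the transgene (28.2 and 25.5). None of the other 5 measured PDGF genes was called, and their median with PDGFRA was −0.02, equal to that of all genes at this rounding. Further falls among the 15 largest were ZFPM2, a cofactor of GATA factors (119 and 142 to 23.4 and 23.1), FABP4, a fatty acid carrier of fat cells and macrophages (226 and 157 to 36.0 and 34.2), and CCNA1, the cyclin A1 gene (192 and 208 to 46.2 and 55.8). HAS2, which makes the matrix polymer hyaluronan, went from 544 and 531 to 171 and 121 (−1.91). ABI3BP, a matrix protein gene, went from 324 and 413 to 102 and 109 (−1.80), and SLC14A1, a urea transporter, from 65.8 and 99.2 to 22.5 and 22.7 (−1.84). In each of these genes both Clone 1 arrays were below both parent arrays, which the choice of the 15 largest falls required.

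The largest rise was in LPAR3, a receptor for the lipid mediator lysophosphatidic acid. It read 24.7 and 26.6 in PC3-ML, at the floor, and 126 and 132 in Clone 1 (2.33, SE 0.15, limma adjusted p = 3.19e-05). Clone 3 was also at the floor (23.4 and 22.7). ENO1, the glycolytic enzyme enolase, rose from 599 and 1302 to 3718 and 4946 (2.28, SE 0.28, adjusted p = 0.000742), and its parent arrays lay far apart from each other. LMAN2, a lectin that carries glycoproteins through the secretory pathway, rose from 96.4 and 144 to 477 and 568 (2.15). IL13RA2, the decoy receptor of interleukin-13, rose from 90.8 and 59.5 to 333 and 267 (2.02, SE 0.20), while Clone 3 stood below the parent at 39.5 and 37.0.

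LCP1, the actin-bundling L-plastin of white blood cells that carcinomas often express, rose from 231 and 185 to 804 and 782 (1.94, SE 0.13, adjusted p = 4.25e-05). KIF5C, a kinesin heavy chain of neurons, rose from 29.0 and 31.3 to 111 and 119 (1.93), and SLC9A2, a sodium-proton exchanger of epithelia, from 32.7 and 33.1 to 118 and 122 (1.87). GULP1, an adaptor of engulfment, rose from 225 and 224 to 813 and 727 (1.78). CST1, a secreted cysteine protease inhibitor (1.77), HEPHL1, a copper-dependent ferroxidase (1.76), and SHISA3 (1.72) were also among the 15 largest rises. In all of these both Clone 1 arrays were above both parent arrays, which the choice of the 15 largest rises required. The plot of single arrays shows their levels.

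**Figure D2:**
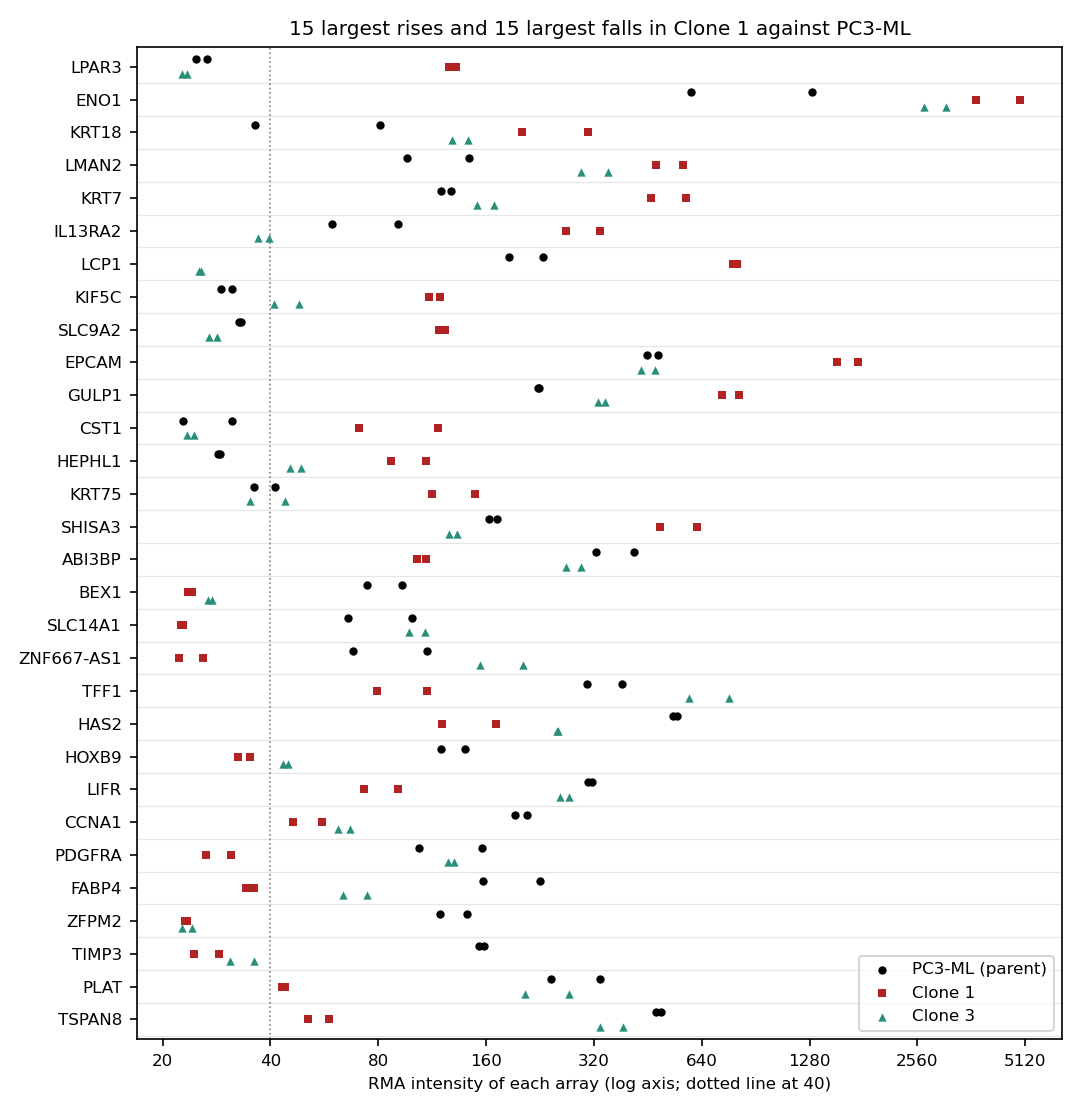
RMA intensity of every PC3-ML (black circles), Clone 1 (red squares) and Clone 3 (green triangles) array, on a log axis, for the 15 largest rises and 15 largest falls in Clone 1. The 2 Clone 1 arrays sit apart from both parent arrays in every gene, as the choice of genes required. Clone 3 lies with Clone 1 for ZFPM2 and TIMP3, with the parent for TSPAN8 and PLAT, and beyond the parent for LCP1 and TFF1.

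Some genes crossed from near the floor to a clear signal. With a line mean of at least 80 taken as on and a mean under 40 as off, 17 called genes were off in PC3-ML and on in Clone 1, and 16 were on in PC3-ML and off in Clone 1. Among the 17 gained genes, Clone 3 was under 40 in 7, at 80 or more in 0 and between in 10. Among the 16 lost genes, Clone 3 was under 40 in 6, at 80 or more in 6 and between in 4. Besides LPAR3, KIF5C, SLC9A2, CST1, HEPHL1 and KRT75, the gained genes with the largest changes were VCAN, the large matrix proteoglycan versican (31.5 and 36.3 to 100.2 and 119.9, change 1.70), DHRS3, which reduces retinaldehyde (37.2 and 41.4 to 96.1 and 111), VPS35L, an endosomal sorting subunit (31.4 and 34.8 to 76.6 and 91.0), and BICC1, an RNA-binding protein (35.6 and 41.1 to 88.5 and 101). Clone 3 stayed at 34.7 and 36.7 for VCAN and at 34.0 and 32.8 for BICC1, both under 40. Besides TIMP3, ZFPM2, FABP4, PDGFRA, HOXB9, ZNF667-AS1, SLC14A1 and BEX1, the lost genes with the largest changes were ELOVL2, which lengthens polyunsaturated fatty acids (136 and 121 to 35.8 and 42.3), and TFF2, a trefoil peptide of mucosae (89.6 and 120.3 to 39.5 and 40.4). These counts follow from the levels chosen for on and off, and TFF2 with 39.5 and 40.4 lies just inside the lower one.

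The 250 bases before the RefSeq start (GRCh38.p14) of 2 gained and 2 lost genes are shown because these promoters belong to genes that moved between floor and signal. Capitals mark each CG, the dinucleotide at which vertebrate promoters are methylated, which reads the same on both strands. LPAR3 lies on the minus strand at chr1:84893207-84893456 with 27 CG, and SLC9A2 on the plus strand at chr2:102619303-102619552 with 34. PDGFRA lies on the plus strand at chr4:54229043-54229292 with 8, and TIMP3 on the plus strand at chr22:32801455-32801704 with 26.
LPAR3: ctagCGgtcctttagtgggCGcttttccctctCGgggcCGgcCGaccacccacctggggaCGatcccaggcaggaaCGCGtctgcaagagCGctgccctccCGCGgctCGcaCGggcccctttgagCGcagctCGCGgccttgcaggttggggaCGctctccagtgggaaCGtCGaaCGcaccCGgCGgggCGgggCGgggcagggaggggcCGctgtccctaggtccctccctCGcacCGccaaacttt
SLC9A2: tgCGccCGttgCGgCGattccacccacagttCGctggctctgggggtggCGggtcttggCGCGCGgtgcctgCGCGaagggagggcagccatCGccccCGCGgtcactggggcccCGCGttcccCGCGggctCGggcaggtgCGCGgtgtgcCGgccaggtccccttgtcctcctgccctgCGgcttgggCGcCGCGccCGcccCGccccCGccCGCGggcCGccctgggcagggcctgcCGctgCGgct
PDGFRA: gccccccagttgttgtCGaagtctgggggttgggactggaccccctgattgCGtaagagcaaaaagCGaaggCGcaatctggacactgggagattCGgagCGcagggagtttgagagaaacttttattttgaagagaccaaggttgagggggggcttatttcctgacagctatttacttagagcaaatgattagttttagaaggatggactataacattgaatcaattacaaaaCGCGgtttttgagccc
TIMP3: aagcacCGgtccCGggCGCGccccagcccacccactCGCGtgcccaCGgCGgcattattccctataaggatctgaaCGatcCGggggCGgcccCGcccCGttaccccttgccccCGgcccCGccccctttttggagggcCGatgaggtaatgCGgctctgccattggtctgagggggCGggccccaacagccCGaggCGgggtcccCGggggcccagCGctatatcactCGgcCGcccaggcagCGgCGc
Over 27305 RefSeq promoters of this length the median was 11 CG, with quartiles of 3 and 23. The LPAR3 promoter has as many CG as or more than 84.5% of them, that of SLC9A2 94.4%, that of TIMP3 82.7% and that of PDGFRA 46.2%. Among the 10 gained genes named, 8 had a promoter in the table, with 2 to 34 CG and a median of 17, and among the 10 lost genes 6 had one, with 2 to 45 and a median of 20. The letters TATAAA, searched on both strands, were in 0 of these 14 promoters and in 11.1% of all. The arrays give no methylation or binding at these sequences, and the matches describe the letters alone.

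Some of the smaller changes lay in blocks of neighbouring genes. With the genes put in RefSeq order and taken 50 at a time, 356 full windows had median changes between −0.15 and 0.38, and the middle of them, from the 5th to the 95th percentile, ran from −0.08 to 0.08. The 3 highest windows all lay on chromosome 6 and the 3 lowest on chromosomes 5 and 7. The window from LCAL1 to CASP8AP2 on chromosome 6 was highest (median 0.38), with 24 of 50 genes called higher and 0 lower. Its called members included RRAGD, a GTPase of amino acid sensing (26.3 and 25.0 to 63.7 and 74.0), SNX14, a sorting nexin (84.2 and 91.2 to 216 and 195), and LYRM2, a mitochondrial assembly gene (137 and 124 to 305 and 301).

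Adjoining windows that moved the same way were joined into 6 stretches after their medians had been seen, so the counts in them carry no test. The median is given over genes with a mean above an intensity of 40, since genes at the floor in both lines show no shift. Over all 8477 genes above 40 it was 0.05. The longest stretch ran on chromosome 6 from GFRAL to UNC93A. It held 400 genes, 139 called higher and 5 lower, and 183 of its 209 genes above 40 had a positive change, with a median of 0.50, or 1.41-fold. The 550 genes before it on chromosome 6 held 14 higher and 39 lower calls and a median of −0.05, so they did not share the shift. AKAP12, a scaffold of protein kinase A (315 and 345 to 746 and 739.6, change 1.17), COL12A1, a fibril-associated collagen (1.12), HBS1L, a ribosome rescue factor (1.43), TTK, a mitotic checkpoint kinase (1.13), EPHA7, an ephrin receptor (0.67), and SESN1, a stress-induced regulator of growth (0.62), all rose and all lie in it.

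On chromosome 12 the stretch from C1QL4 to MBD6 held 200 genes, 60 called higher and 0 lower, and its median was 0.50. It takes in the type II keratin cluster and KRT18 beside it, and also STAT6, the transcription factor of interleukin-4 and interleukin-13 (36.9 and 42.6 to 93.8 and 98.0, change 1.27), PRIM1, the catalytic primase subunit (0.93), and SHMT2, the mitochondrial serine hydroxymethyltransferase (1.30). On chromosome 3 the 300 genes from CHL1 to RHOA held 73 higher and 5 lower calls, with a median of 0.33. Together these 3 stretches had 4.90% of all genes tested and 16.4% of those called higher.

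The opposite shift was found on chromosomes 5, 7 and 21. The 150 genes from PLEKHG4B to CCNO on chromosome 5 held 1 higher and 44 lower calls, and 71 of the 79 genes above 40 had a negative change, with a median of −0.46, or 1.38-fold lower. LIFR, the receptor of leukemia inhibitory factor, fell there from 308 and 316 to 73.0 and 90.8 (−1.94, SE 0.19, limma adjusted p = 0.000262). FST, which encodes the activin antagonist follistatin, went from 1100.0 and 1119 to 377 and 412 (−1.49, SE 0.12). DROSHA, the nuclear ribonuclease of microRNA processing, went from 420.0 and 488 to 222 and 248 (−0.95), and BASP1, ATPSCKMT, FASTKD3, CPLANE1 and OTULIN fell by between 0.88 and 1.31. The 620 genes after it on chromosome 5 had a median of 0.10, with 72 higher and 17 lower calls.

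All of chromosome 21 was low in Clone 1. Of its 235 genes 48 were called lower and 0 higher, and 96 of the 104 genes above 40 had a negative change, with a median of −0.36, or 1.29-fold lower. TFF1, a trefoil peptide that protects mucosae, fell from 306 and 383 to 79.4 and 109 (−1.88, SE 0.32, limma adjusted p = 0.00407), and its neighbour TFF2 by 1.38. COL6A1 and COL6A2, neighbouring genes for chains of collagen VI, fell by 0.93 and 0.66, and ADAMTS1, a secreted metalloprotease, by 0.92. The 300 genes from FAM20C to SBDS on chromosome 7 moved less, with 6 higher and 41 lower calls and a median of −0.21. INHBA, which encodes the activin A subunit, fell there from 361 and 350.4 to 195 and 197 (−0.86). Against that trend IGF2BP3, a fetal RNA-binding protein, rose from 36.7 and 39.7 to 98.3 and 76.9 (1.19), as did ACTB. The stretches of chromosomes 5, 7 and 21 had 3.73% of all genes tested and 15.2% of those called lower.

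The 6 stretches were not set off by a fixed limit, and other long blocks shifted by amounts between those of the chromosome 7 and chromosome 3 stretches. On chromosome X the 392 genes from AWAT2 to IL9R held 4 higher and 48 lower calls, and 127 of the 156 genes above 40 had a negative change, with a median of −0.22. BEX1, BEX4, NDUFA1, TSPAN6 and CSAG1, which were called lower, lie in this block, as does IL13RA2, which rose. On chromosome 2 the 400 genes from ACOXL-AS1 to TNP1 held 80 higher and 8 lower calls, and 160 of the 199 genes above 40 had a positive change, with a median of 0.28. KIF5C, GULP1, ITGAV and IFIH1, which were called higher, lie there. Over all genes 9.01% were called higher in Clone 1 than in PC3-ML and 4.77% lower. Against Clone 3 the medians of the blocks of chromosomes X and 2 were −0.38 and 0.22. Both blocks were picked after the windows had been seen and carry no test.

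**Figure D3:**
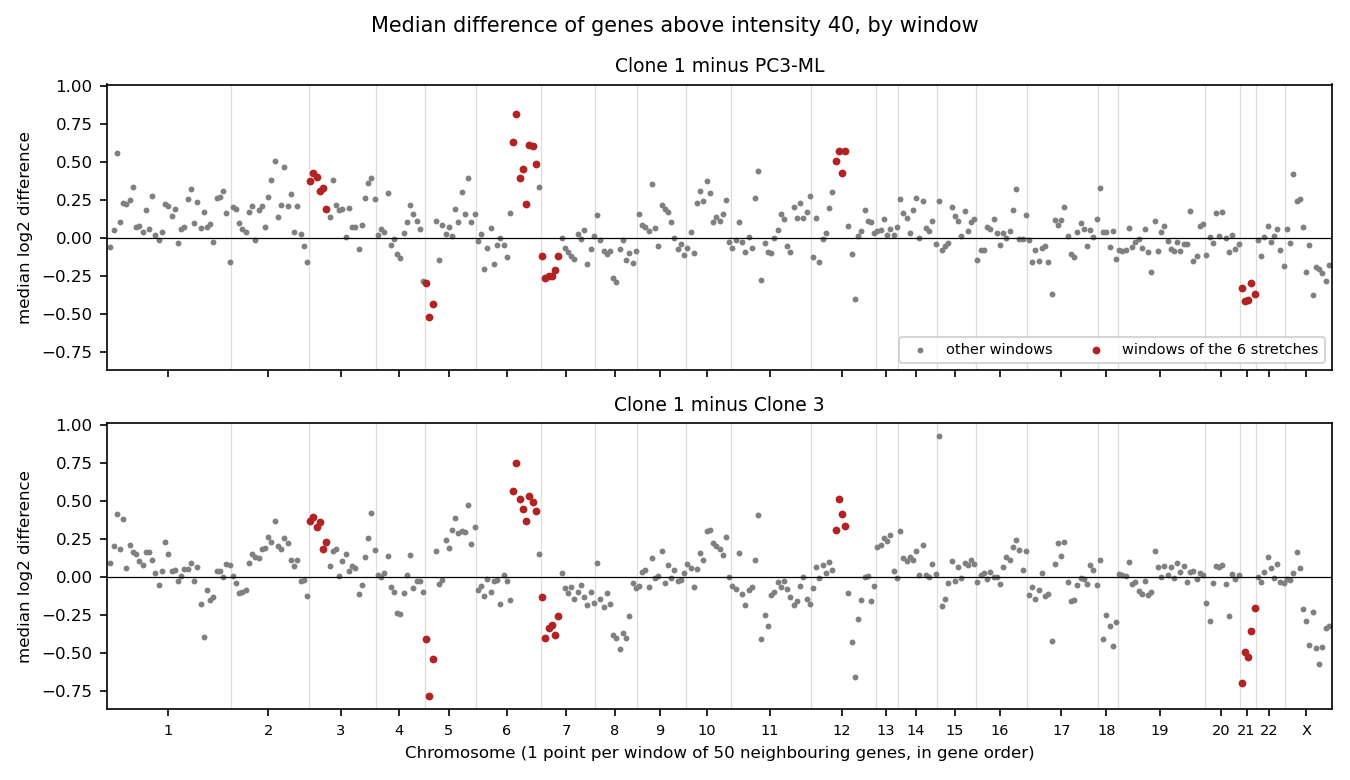
Median log2 difference of genes above an intensity of 40 in each window of 50 neighbouring genes, in gene order, for Clone 1 minus PC3-ML (top) and Clone 1 minus Clone 3 (bottom), with windows of the 6 stretches in red. The red windows of chromosomes 3, 6 and 12 lie above 0 and those of chromosomes 5, 7 and 21 below 0 in both panels, which share the Clone 1 arrays.

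**Figure D4:**
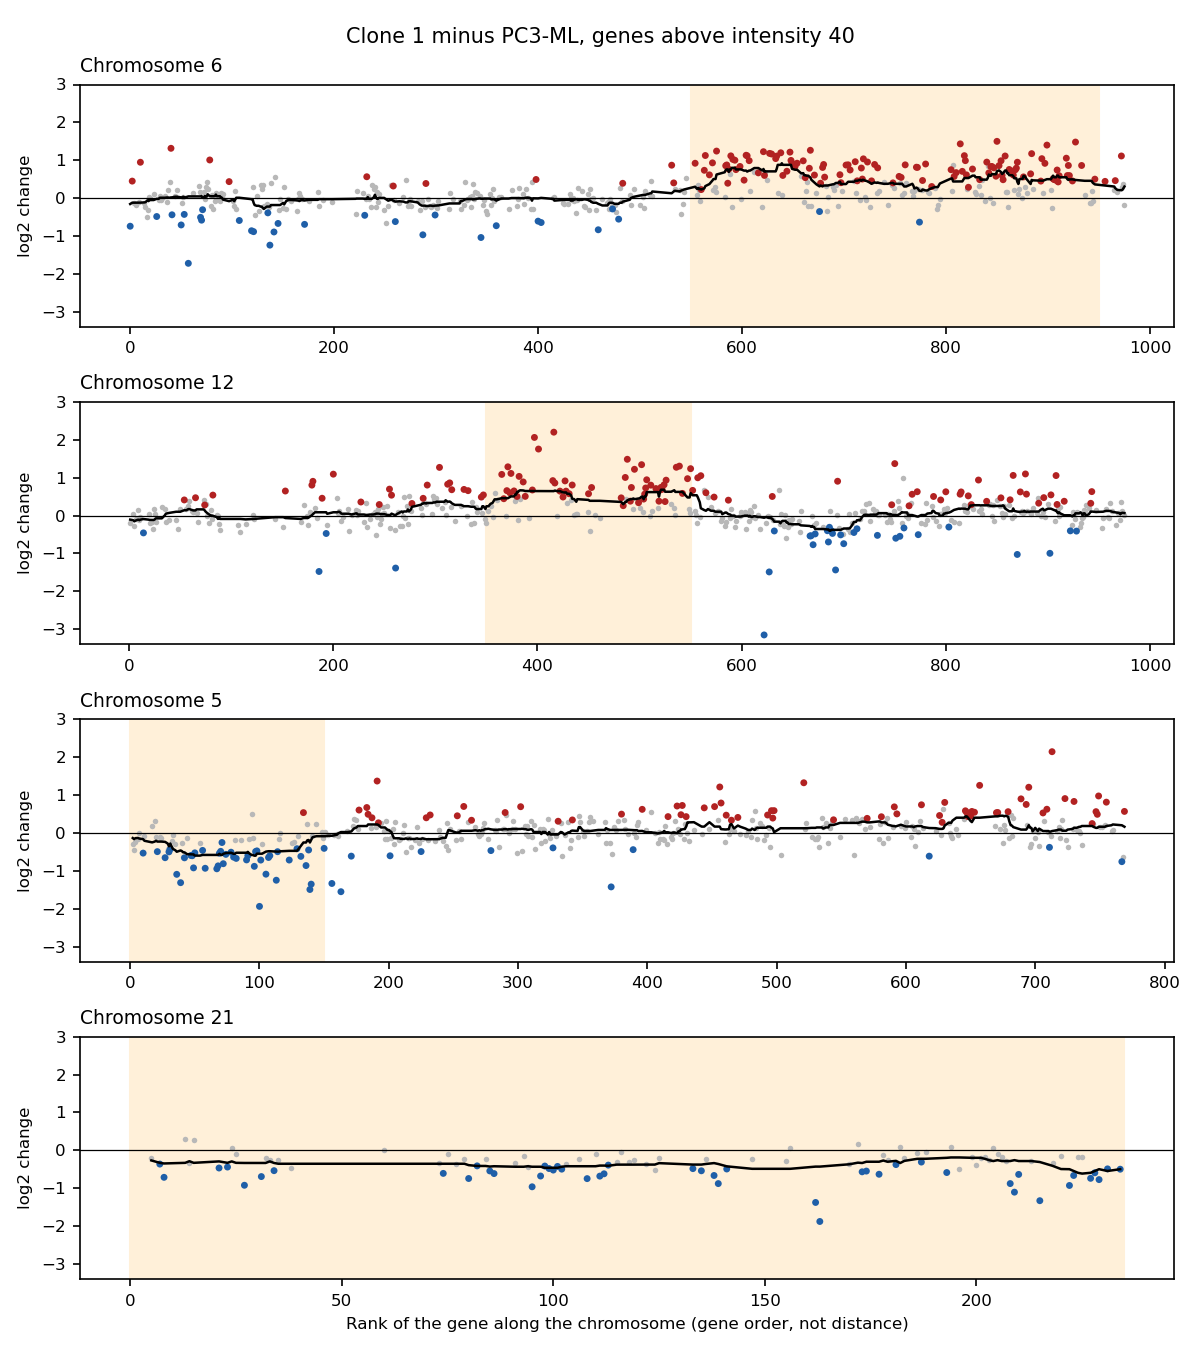
Change of each gene above an intensity of 40 (log2, Clone 1 minus PC3-ML) by its rank along chromosomes 6, 12, 5 and 21, with called genes in red (higher) and blue (lower), the rest in grey, a running median over 20 such genes as a line and the described stretch shaded. The line rises near the start of the shaded part of chromosome 6, runs below 0 in that of chromosome 5 and stays below 0 along chromosome 21.

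Single arrays showed the shift in both passages of Clone 1. Relative to the mean of the 10 arrays of PC3 background, genes above 40 in the chromosome 6 stretch had a median deviation of 0.37 and 0.38 in the Clone 1 arrays, −0.16 and −0.13 in those of PC3-ML, −0.12 and −0.13 in those of Clone 3 and −0.03 and −0.07 in those of PC3-N. On chromosome 21 the deviations were −0.30 and −0.31 in Clone 1, 0.07 and 0.11 in PC3-ML, 0.17 and 0.15 in Clone 3 and 0.09 and 0.07 in PC3-N. In the chromosome 5 stretch they were −0.36 and −0.33 in Clone 1, 0.07 and 0.11 in PC3-ML and 0.23 and 0.20 in Clone 3. In these 3 stretches the Clone 1 arrays thus stood alone on their side of every other array named. Under the alternatives tried, the medians ranged from 0.43 to 0.53 on chromosome 6, from −0.58 to −0.39 on chromosome 5 and from −0.44 to −0.34 on chromosome 21. The arrays measured RNA, and the number of DNA copies of these stretches was not measured.

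Of the epithelial and mesenchymal genes called, the keratins lie in a stretch, and the junction and mesenchymal genes do not. The shares called higher were 26.7% of keratins and 16.7% of junction genes, against 9.01% of all genes. Of mesenchymal genes 5.56% were lower, close to the 4.77% of all genes. All 4 keratins called were higher in Clone 1, out of 15 measured (median 0.10), and all 4 lie in the chromosome 12 stretch. KRT7, a keratin of simple epithelia, rose from 119.7 and 128 to 461 and 579.7 (2.06, SE 0.17, limma adjusted p = 0.000103), more than the median of its stretch. KRT8, which pairs with KRT18 in simple epithelia, rose from 207 and 220.2 to 403 and 405 (0.92). KRT18 went from 36.3 and 80.8 to 201 and 309 (2.20, SE 0.43) and KRT75, a hair follicle keratin, from 36.0 and 41.1 to 113 and 149 (1.76), but both calls were lost without Clone 1 replicate 2 and without PC3-ML replicate 1. A second KRT18 probe set rose by 0.53. Of 18 epithelial junction genes 3 were higher and 0 lower: EPCAM, the epithelial adhesion molecule (450.0 and 483 to 1747 and 1522, change 1.81, adjusted p = 4.25e-05), CLDN1, a tight junction claudin (123 and 139 to 336 and 425, 1.53), and DSP, the desmosome protein desmoplakin (1.32). A second EPCAM probe set rose by 1.99. Of 18 mesenchymal genes 1 was called, ZEB1, a repressor of epithelial genes, which was lower (92.3 and 85.9 to 61.0 and 63.7, −0.51). The call for ZEB1 did not hold without either Clone 1 array or without PC3-ML replicate 1.

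The DNA replication and mitotic genes that were called were all higher in Clone 1. Of 27 DNA replication genes 11 were called higher (40.7%) and 0 lower, with a median of 0.36. Of 25 mitotic genes 8 were higher (32%) and 0 lower, with a median of 0.25. Over all genes 9.01% were higher and 4.77% lower, with a median of −0.02. In the class of genes with the highest mean level 23.1% were higher and 10.4% lower. PRIM1 rose from 231 and 241 to 478 and 425, MCM3, a subunit of the replicative helicase, from 179.7 and 237 to 377 and 377 (0.87), RFC4, a clamp loader, by 0.73, and POLA1, the DNA polymerase that works with primase, by 0.71. KIF20A, a kinesin of cytokinesis (122 and 156 to 313 and 328, 1.21), TTK (115 and 105 to 235 and 246), BUB1, a spindle checkpoint kinase (1.05), and NDC80, a kinetochore gene (0.87), led the mitotic group. Of these calls 1 of the 8 mitotic and 1 of the 11 replication genes lie in a stretch described above. Among 16 genes of G1 cyclins, cyclin A1 and CDK inhibitors, CDK4, the kinase of the G1 phase, rose by 1.05, while CCNA1 (−1.98) and PLK2, a kinase induced by stress, fell (226 and 216 to 76.3 and 74.3, −1.55).

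Proteasome and glycolysis genes that were called were nearly all higher, where over all genes 9.01% were higher and 4.77% lower. In the class of genes with the highest mean level 23.1% were higher and 10.4% lower. The lowest mean in PC3-ML was 170 among the proteasome subunits and 73.0 among the oxidative phosphorylation genes. Of 24 proteasome subunits 9 were higher (37.5%) and 1 lower, with a median of 0.31. PSMC3, an ATPase of the regulatory particle, rose from 264 and 337 to 945 and 943 (1.66, SE 0.11, limma adjusted p = 3.19e-05), followed by PSMB3 (0.97) and PSMD2 (0.71). The subunit that fell, PSMA2 (−0.44), lies in the chromosome 7 stretch. Of 21 oxidative phosphorylation genes 8 were higher (38.1%) and 3 lower (14.3%), with a median of 0.07. SDHD, an anchor subunit of succinate dehydrogenase (1.03), and ATP5F1B, the catalytic subunit of ATP synthase (1717 and 2159.8 to 3404 and 3051, 0.74), rose, whereas NDUFA1, a complex I subunit, fell from 2731 and 2699 to 1569.5 and 1649 (−0.75, SE 0.05). The other two lower genes were COX6C (−0.66) and ATP5PO (−0.50), the latter on chromosome 21. Of 25 glycolysis and hypoxia genes 6 were higher (24.0%) and 0 lower (median 0.08): besides ENO1 they included SLC2A1, the glucose transporter GLUT1 (40.4 and 44.1 to 85.2 and 117, 1.24), and the aldolase ALDOA (0.85). NDRG1, a hypoxia and androgen responsive gene, read 84.8 and 94.7 in PC3-ML and 148 and 251 in Clone 1 and was not called (adjusted p = 0.085).

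Of 20 genes of sterol and fatty acid synthesis 4 were higher (20%) and 0 lower (median 0.14), against 9.01% and 4.77% of all genes. They were ACACA, the acetyl-CoA carboxylase that commits carbon to fatty acids (1.22), FDPS (0.90), FADS1 (0.61) and SC5D (0.51). Each of these calls was lost without Clone 1 replicate 2 and without PC3-ML replicate 1. Of 16 redox genes 4 were higher (25%) and 0 lower (median 0.17). TXNIP, which inhibits thioredoxin and glucose uptake, rose from 341 and 373 to 791 and 936 (1.27), NQO1, a quinone reductase under NRF2, from 292 and 299 to 440.0 and 454 (0.60), FTL by 0.67 and TXNRD1 by 0.28. The calls for FTL and TXNRD1 were lost after quantile normalization and without Clone 1 replicate 2. SHMT2 was the only gene called among 25 of the ATF4 and unfolded protein response (4% higher, below the share of all genes). Of 17 amino acid transporters SLC1A5 was higher (0.44) and SLC43A1 lower (−0.43), with both calls lost on leaving out PC3-ML replicate 1. At 5.88% each way these shares are near those of all genes. A second SLC1A5 probe set was not called (0.04, adjusted p = 0.919).

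The interleukin axes moved in a mixed way. IL1B, the gene of interleukin-1 beta, rose from 264 and 258 to 770.1 and 704 (1.50, SE 0.14, limma adjusted p = 0.000157), and both Clone 1 arrays lay above those of Clone 3 (561 and 461). CXCL6, a chemokine for neutrophils, rose from 250.3 and 209.8 to 371 and 330.0 (0.61), a call lost after quantile normalization, without Clone 1 replicate 1 and without PC3-ML replicate 2. Of 21 cytokines and targets of IL-1 and NF-kB, 4 were higher and 2 lower (median 0.04). For comparison, 9.01% of all genes were called higher and 4.77% lower. SOD2, the mitochondrial superoxide dismutase, was at 134 and 138 in PC3-ML and 268 and 297 in Clone 1 (1.05, lost without Clone 1 replicate 2) and lies in the chromosome 6 stretch, and ICAM1 rose by 0.49 (lost without Clone 1 replicate 2 and without PC3-ML replicate 1). The 2 lower genes were CXCL5 (−0.40) and CCL2 (−0.40). Of 10 receptors of the IL-1 family IL18R1 (0.62) and IL1RL1 (0.28) were higher (20%). Both were near the floor, both are close neighbours of SLC9A2 on chromosome 2, and the call for IL1RL1 was lost on leaving out any of the 4 arrays.

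Of 12 receptors and transducers of the interleukin-13, interleukin-4 and interleukin-6 type, 2 were higher (16.7%) and 3 lower (25.0%), against 9.01% and 4.77% of all genes, and 7 were not called (median −0.11). IL6ST, the shared signalling chain gp130, fell from 429 and 379 to 159 and 161 (−1.33, SE 0.15, limma adjusted p = 0.000497), and its partners LIFR (−1.94) and OSMR (−0.72) fell with it. LIFR and OSMR lie in the chromosome 5 stretch and IL6ST just past its end on the same chromosome. IL13RA2 and STAT6 were the 2 that were higher. Elsewhere in growth factor signalling, 6 of 24 MAPK feedback and immediate early genes were lower and 0 higher (median −0.07). SPRY1 and SPRED1, inhibitors of receptor tyrosine kinase signalling, went from 155 and 137 to 82.5 and 81.4 (−0.83) and from 533 and 518 to 326 and 344 (−0.65), and the transcription factor genes ETV4 and JUN by −0.65 and −0.59. The calls for SPRY1, SPRED1 and ETV4 were lost without PC3-ML replicate 1, and that for JUN was kept under every alternative. Of 25 genes of TGF-β, BMP and activin signalling 4 were lower and 0 higher, with FST and INHBA, an inhibitor and a ligand of the same pathway, leading. EGFR (0.48) and TGFA (0.25) were higher and EPGN (−0.30) lower among 11 genes of the EGF family, all 3 lost with the 4 arrays fitted alone. NRP1, a coreceptor of VEGF, rose from 238 and 329 to 551 and 571 (1.00, lost without Clone 1 replicate 2 and without PC3-ML replicate 1).

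Genes that build or act on the matrix were called in both directions, for the metalloproteases and for the rises among collagens at shares close to those of all genes (9.01% higher, 4.77% lower). Of 10 plasminogen genes 2 were higher and 3 lower (median 0.09): PLAU, the urokinase gene, read 137 and 181 in PC3-ML and 234 and 289 in Clone 1 (0.73), SERPINI1 rose by 0.39, and PLAT, S100A10 (1233 and 1334 to 861 and 799.9, −0.63) and its partner ANXA2 (−0.35) were lower. The calls for PLAU, SERPINI1 and S100A10 were lost without Clone 1 replicate 2, and that for PLAU also after quantile normalization. Among 22 metalloproteases and inhibitors, with 1 higher (4.55%) and 2 lower (9.09%), TIMP1 rose from 155 and 199 to 440.4 and 597 (1.55, SE 0.20, adjusted p = 0.00104), while TIMP3 (−2.55) and ADAMTS1 (−0.92) fell. Of 25 collagens and laminins 2 were higher (8%) and 4 lower (16%). COL12A1 (94.2 and 112 to 221 and 224) and LAMA4 (0.95) rose, both on the chromosome 6 stretch, and the call for LAMA4 was lost without Clone 1 replicate 2 and without PC3-ML replicate 1. COL6A1 (121 and 115 to 56.8 and 67.6) and COL6A2 (101 and 84.8 to 54.4 and 62.6) led the falls.

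Adhesion receptors shifted by smaller amounts, TSPAN8 apart. Over all genes 9.01% were higher and 4.77% lower. The shares were 21.4% and 7.14% for integrins, 21.1% and 15.8% for tetraspanins and 18.8% and 12.5% for cytoskeletal genes. They were 18.2% and 9.09% for ELMO and DOCK genes. Eph and ephrin genes, with 5.88% each way, were close to all genes. Of 14 integrins 3 were higher and 1 lower: ITGB3, the beta chain of the vitronectin receptor, rose from 28.0 and 28.8 to 50.9 and 52.4 (0.86, SE 0.09, limma adjusted p = 0.000262), its partner ITGAV by 0.65 and ITGA5 by 0.63, and ITGB1 fell (−0.38). Only the ITGB3 call held with each array left out. Of 19 tetraspanins 4 were higher and 3 lower, TSPAN15 (0.71) and TSPAN12 (0.65) among the former and TSPAN6 (−0.34) among the latter, and of these 3 calls that of TSPAN12 alone held with each array left out. Of 16 cytoskeletal genes LCP1 and RDX (0.43, lost without PC3-ML replicate 1) were among 3 that were higher, and EPB41L3, a membrane skeleton gene, fell from 204 and 235 to 73.3 and 74.6 (−1.57) with CNN3 (−0.72). Among 11 genes of the ELMO and DOCK pathway DOCK10 (0.58) and DOCK1 (0.51) were higher and RAC1, the GTPase they act on, was lower (−0.79), all lost without Clone 1 replicate 2 and without PC3-ML replicate 1. ELMO1 was at the floor (21.3 and 21.6 against 21.2 and 21.5). Of 17 Eph and ephrin genes EPHA7 rose and EFNB2 fell from 64.0 and 62.2 to 29.1 and 28.4 (−1.13).

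The homeobox genes that were called were all lower. Of 22 HOX genes 4 were lower (18.2%, against 4.77% of all genes) and 0 higher (median −0.11), and all 4 belong to the B cluster: HOXB9 (139 and 119.9 to 35.1 and 32.5, −1.94, SE 0.11, limma adjusted p = 2.53e-05), HOXB6 (122 and 117 to 48.6 and 65.5, −1.08), HOXB5 (−0.59) and HOXB7 (−0.52). HOXB13, the prostate homeobox gene at the end of the same cluster, read 103 and 136 in PC3-ML and 85.4 and 117 in Clone 1 and was not called. The calls for HOXB5 and HOXB7 were lost without PC3-ML replicate 1. ZNF667-AS1, an antisense transcript in the zinc finger cluster of chromosome 19, fell from 68.2 and 109 to 22.2 and 26.0 (−1.85, SE 0.21), and ZNF606 (−0.28) and ZNF717 (−0.77) were the other genes called among 20 zinc finger and imprinted genes, both lost on leaving out any of the 4 arrays. The sources used here do not say whether labelling kept strand, so signal of ZNF667-AS1 and of ZNF667, which was not called (−0.09), is not separated with certainty. BEX1, a brain-expressed X-linked gene, fell from 93.0 and 74.5 to 24.2 and 23.5 (−1.80) with its neighbour BEX4 (−0.58, lost without Clone 1 replicate 1 and without PC3-ML replicate 1), and CSAG1, a cancer-testis gene, from 67.3 and 65.3 to 31.7 and 28.3 (−1.14). S100A2, a calcium-binding protein of basal epithelium, fell from 1592 and 1633 to 618 and 543 (−1.48, SE 0.08, adjusted p = 2.53e-05).

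None of 13 RGS genes, 16 Wnt genes, 8 genes of the androgen receptor program and 10 ectonucleotidase and adenosine receptor genes was called by limma, where 4, 3, 1 and 0 had an unadjusted p under 0.05. Over all 18372 genes tested, 4652 had an unadjusted limma p under 0.05. Of 30 interferon-stimulated genes IFIH1, a sensor of viral RNA, rose from 39.6 and 39.7 to 81.1 and 95.3 (1.15) and IFI16 by 0.68, the latter lost without Clone 1 replicate 1 and without PC3-ML replicate 1. RUNX2, the transcription factor of bone formation, was the only one of 17 bone-related genes called and was lower (42.1 and 42.4 to 31.3 and 28.4, −0.50, lost without Clone 1 replicate 2). Among 18 progenitor markers ALCAM alone was called (0.48), and the call was lost on leaving out any of the 4 arrays. LPAR1, another lysophosphatidic acid receptor, rose by 0.29, a call lost after quantile normalization. Ribosomal protein genes were split, with 10 of 63 higher and 10 lower (15.9% each, against 9.01% and 4.77% of all genes). In the class of genes with the highest mean level the shares were 23.1% and 10.4%. Of the ribosomal protein genes RPL29 (1.28), RPS9 (1.16), RPL18 (1.09) and RPL22 (1.09) rose, and a second RPL29 probe set was not called (−0.20, adjusted p = 0.455). Of 190 small nucleolar and Cajal body RNAs 25 were lower (13.2%, against 4.77% of all genes), 4 higher and 161 not called, with a median of −0.04. They summed to between 13873 and 15802 in PC3-ML and between 8821 and 9821 in Clone 1. Against Clone 3, 7 of the 190 were higher and 1 lower in Clone 1, where 1075 of all 18372 genes were higher and 850 lower. What part a difference in short RNA between the RNA preparations has in the other calls was not tested.

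**Figure D5:**
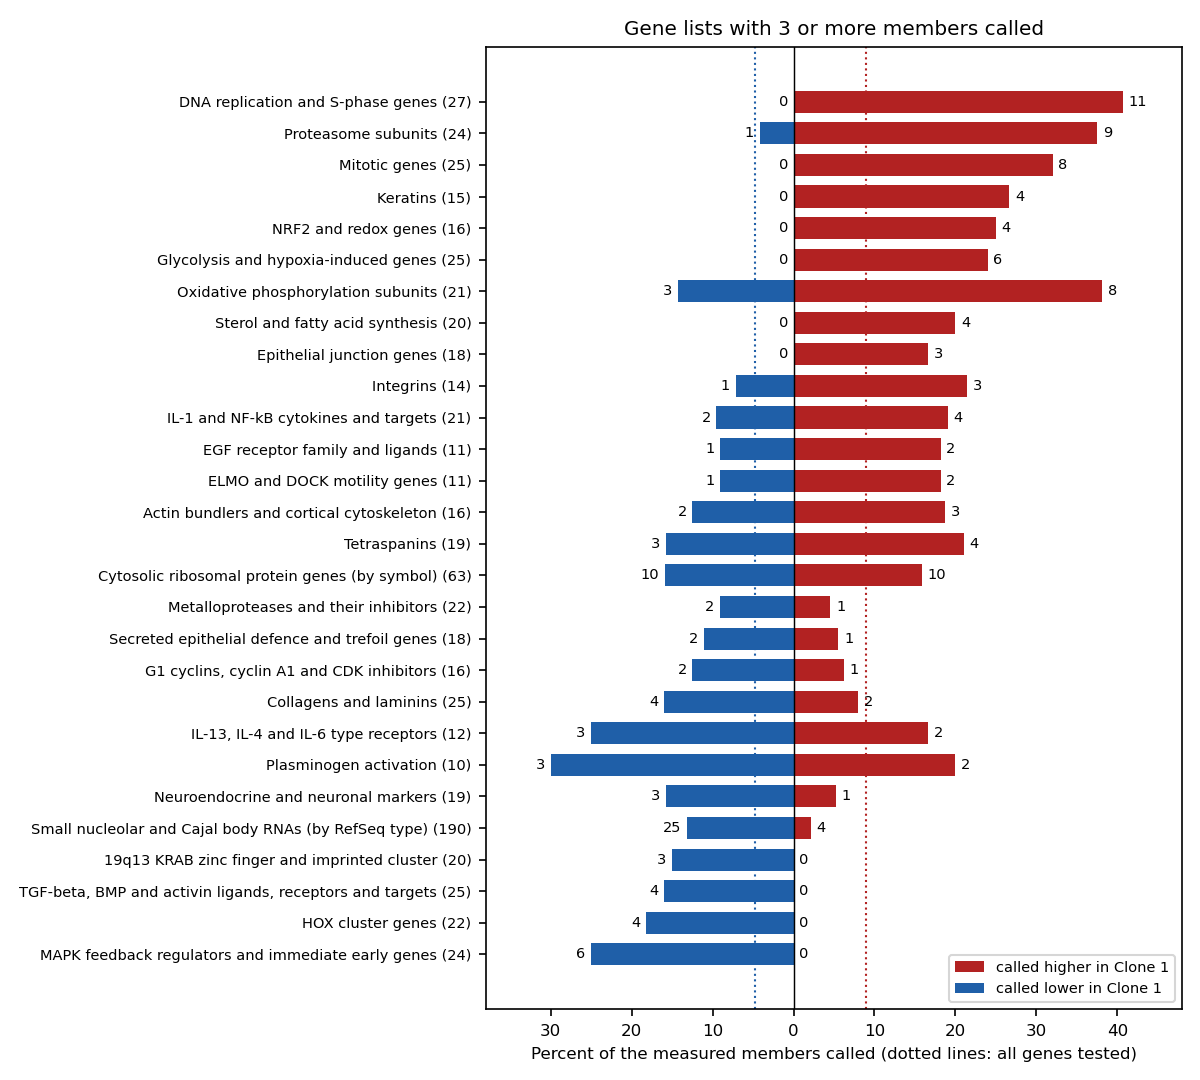
Percent of the measured members of each list that were called higher (red, right) or lower (blue, left) in Clone 1 against PC3-ML, with the number called at each bar, the number measured in brackets and dotted lines at the shares of all genes. The 28 lists with 3 or more calls are shown, from replication genes, with 11 higher and 0 lower, to MAPK feedback genes, with 0 higher and 6 lower.

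Clone 3, grown from another single cell of the same parent, shows which of these changes Clone 1 does not share. The contrast of Clone 1 with Clone 3 equals the difference between the changes of the clones from PC3-ML, and it shares the Clone 1 arrays with the contrast above. By the same limma test 1925 genes (10.5%) differed, 1075 higher and 850 lower in Clone 1. Leaving out any 1 of the 4 arrays of the clones brought this to between 1018 and 1123. The largest difference was in LCP1, at 804 and 782 in Clone 1 and 25.5 and 25.3 in Clone 3 (4.96, adjusted p = 6.45e-08), with the parent between at 231 and 185. IL13RA2 (2.96) and PODXL, a sialomucin of podocytes (358 and 444 against 62.5 and 60.5, 2.70), were high in Clone 1 and below the parent in Clone 3. ESM1, a secreted endothelial proteoglycan, and ARHGDIB were near the floor in Clone 3 alone of the 3 lines (21.6 and 24.0, and 24.6 and 24.5), against 149 and 146 and 157 and 141 in Clone 1.

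In the other direction SERPINB3, a serpin of squamous epithelium, read 24.4 and 26.4 in Clone 1, 28.1 and 31.4 in PC3-ML and 643 and 705 in Clone 3 (−4.73, limma adjusted p = 3.48e-08). FEZ1 (24.9 and 23.8 against 284 and 286, −3.55) and LCN2, the iron-scavenging lipocalin (57.0 and 98.2 against 724 and 654, −3.20), were also highest in Clone 3. Between Clone 1 and PC3-ML, SERPINB3 and LCN2 were not called (−0.23, adjusted p = 0.24, and 0.29, adjusted p = 0.484), whereas FEZ1 was lower in Clone 1 (−0.74). PDGFRA (−2.16), PLK2 (−2.11), TSPAN8 (−2.72), PLAT (−2.45) and EPCAM (1.85) differed between the clones, Clone 3 lying near the parent or, for PLK2, above it. For ZFPM2 (−0.01), TIMP3 (−0.33), CCNA1 (−0.34), HOXB9 (−0.38), BEX1 (−0.18), ENO1 (0.58) and TIMP1 (0.23) the clones were not called different, which does not show that they are alike, and Clone 3 too lay apart from both parent arrays on the side of Clone 1. TIMP3 missed the threshold narrowly (adjusted p = 0.0505). Against Clone 3, 1075 of all 18372 genes were higher and 850 lower. Of 27 replication genes 5 were higher and 1 lower, and of 25 mitotic genes 7 were higher and 2 lower. The stretches of chromosomes 6, 12 and 3, with 400, 200 and 300 genes, held 134, 38 and 57 higher and 2, 0 and 1 lower calls. Those of chromosomes 5, 7 and 21, with 150, 300 and 235 genes, held 54, 42 and 65 lower and 2, 3 and 0 higher calls.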

How the data were processed

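Total RNA of 7 lines at 2 passages each was hybridised to 14 single-colour arrays. The authors deposited linear intensities per probe set after RMA, per the submitters' processing notes; its version and the array's build were not given in the sources used here. Intensities ran from 18.5 to 8654 with array medians of 29.9 to 31.6. Of 28829 probe sets 19291 named 1 gene, 1735 several and 7803 none; the brightest of several probe sets stood for 682 genes, giving 18372. The deposited values were taken to log2 with no pseudocount or filter and fitted with limma 3.58.1 (R 4.3.3), 1 mean per line over all 14 arrays, and p-values were adjusted by Benjamini-Hochberg over all genes. The code was tested on simulated data. Since replicates are passages of one culture, p-values measure the spread between passages. The members and gene lists were chosen with earlier results of these data known. Genes named are the 15 largest rises and falls among called genes without overlap of the arrays, and the 10 largest on or off changes. The 5 largest differences between clones each way, 3 genes of each extreme window and up to 4 called genes of each list were also named. PSMA2, COX6C, ATP5PO, OSMR, ANXA2, CXCL5, CCL2, ZNF667 and the genes at the ends of stretches and blocks were chosen after their values were seen. Gene order and promoters came from RefSeq tables of GRCh38.p14, by gene ID, with 52 genes not placed. Alternatives were a replicate block, other sets of arrays, quantile normalization, dim probe sets left out, the mean of probe sets, a trended prior and each array left out.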

Additional observations from a re-analysis of the deposited data

Results flagged for a closer look

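Among the 15 largest rises and 15 largest falls in Clone 1 and the 5 largest differences between the clones in each direction, there were 12 genes in which the arrays of the clones lay on opposite sides of both PC3-ML arrays while the clones differed by limma with an adjusted p under 0.05. Smaller differences were not screened in this way. The values are log2 differences, Clone 1 minus Clone 3. Clone 1 was the higher one for LCP1 (4.96), IL13RA2 (2.96), PODXL (2.70), ESM1 (2.69), ARHGDIB (2.60), LPAR3 (2.48), SLC9A2 (2.12) and SHISA3 (2.09). Clone 1 was the lower one for SERPINB3 (−4.73), FEZ1 (−3.55), ZNF667-AS1 (−2.88) and TFF1 (−2.85). For LPAR3 and SLC9A2 the parent and Clone 3 are both near the floor, as Clone 1 and the parent are for SERPINB3, so the order there rests on small differences. For ESM1 and SERPINB3 Clone 1 itself was not called against PC3-ML (0.24, adjusted p = 0.30, and −0.23, adjusted p = 0.24).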

How the results depend on the processing

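With 2 arrays per line, leaving 1 out makes the lone array borrow its spread from the other lines. Between Clone 1 and PC3-ML such fits called between 1213 and 1981 genes, against 2533, and between the clones 1018 to 1123, against 1925. The other fits called 2335 to 2911 and 1861 to 2162. Of 165 named genes that were called, 112 were called in the same direction under every alternative run and 53 were lost under at least 1, and 0 reversed. The losses were 31 without Clone 1 replicate 1, 45 without Clone 1 replicate 2, 46 without PC3-ML replicate 1, 22 without PC3-ML replicate 2, 17 with the 4 arrays alone and 14 after quantile normalization. With the passage number as a replicate block 2493 and 1878 genes were called and 6 named calls were lost. The numbers did not pair the samples, since deviations of same-numbered arrays correlated between −0.199 and 0.245, over 0.1 in 5 of 21 pairs of lines, although the pair of PC3-ML and Clone 1 was among those 5 (0.216). With dim probe sets left out 2614 genes were called. Signal near the floor limits every fold given against it.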
